A study of Drosophila melanogaster with 6 samples.

Results

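*krimp* and 9 further genes of the piRNA pathway (*piwi*, *aub*, *AGO3*, *vas*, *spn-E*, *armi*, *zuc*, *tej* and *qin*) were read in larval eye discs of *Drosophila melanogaster*. The members were taken by gene symbol from the platform annotation, and the set was chosen on the log2 values of *krimp*, which fell in the mutant, so the fall of *krimp* is a description here and carries no test. All 10 genes had a probe set named for them alone, 10 of the 11982 genes and 11 of the 18769 probe sets read in the series. *qin* had 2 such probe sets and the other 9 genes 1 each. Expression was measured on 6 Affymetrix arrays, 3 for mutants of genotype *w; mir-998[exc222]* and 3 for wild type (*w1118*), all from eye discs of wandering larvae of the third instar cultured at 25°C. *mir-998* encodes a microRNA within an intron of *dE2f1*, and the allele keeps a remnant of a P element within the miRNA hairpin. Both groups carry a *white* mutation. They are separate stocks, so the allele and the rest of the stock's genome cannot be told apart. Mature miR-998 was not analysed here, and the genotype labels were not checked against it. Each array holds RNA of whole discs, so fewer cells of a type and less RNA per cell cannot be told apart.

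The piRNA pathway protects the germline from transposons. Short piRNAs guide Argonaute proteins of the PIWI clade to transposon transcripts, which are sliced in the cytoplasm or silenced at their genes in the nucleus. In fly germ cells Aub and AGO3 amplify piRNAs by turns, in the ping-pong cycle, within a granular zone around the nucleus called nuage, which is built from helicases and from proteins with Tudor domains. In somatic cells of the ovary a simpler form of the pathway runs through Piwi without ping-pong. The pathway is known mainly from the gonads, not from imaginal discs.

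The values were log2 expression values made by RMA, so 1 unit is a doubling, and the 6 arrays had medians between 5.25 and 5.30. All 11 measured eye disc markers lay well above background on every array. Of these *toy* stood at 12.34 ± 0.13 in the mutant and 12.11 ± 0.20 in wild type (log2, SD, n = 3 each). Each of the 11 was higher in the mutant, by 0.03 to 0.46, but all overlapped between genotypes and none passed limma. They averaged 10.38, 10.43 and 10.45 in mutant replicates 1, 2 and 3. In wild type replicates 1, 2 and 3 they averaged 10.24, 10.50 and 9.86, so replicate 3 was the lowest array. Whether the share of disc tissue differed between the genotypes was not tested. Salivary gland and fat body genes differed widely between arrays of 1 genotype. The 3 measured fat body markers averaged 9.42, 6.98 and 6.05 in mutant replicates 1, 2 and 3, against 9.95, 7.61 and 6.50 in wild type replicates 1, 2 and 3. The 10 salivary gland markers averaged 11.95, 8.99 and 9.42 in the mutant arrays and 9.34, 11.41 and 11.43 in the wild type arrays. The 9 hemocyte markers averaged 8.34 to 8.82 in the mutant and 7.42 to 8.13 in wild type, without overlap. Of these 9, only *NimC1*, a phagocytosis receptor of blood cells, passed limma (log2 fold change 1.64, adjusted p = 0.0369), and of the 6 fits that left out 1 array only the one omitting wild type replicate 1 kept this call (adjusted p up to 0.158 in the other 5). The replicates are labelled biological, but no label tells whether each came from its own cross. The p-values therefore reflect how far these 6 samples scatter, part of which may be technical.

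*krimp* encodes a Tudor domain protein of nuage that binds AGO3 and Aub and brings them together for ping-pong. Its log2 values were 5.80, 5.74 and 6.20 in mutant replicates 1, 2 and 3, and 8.30, 9.07 and 8.99 in wild type replicates 1, 2 and 3. All mutant arrays lay below all wild type arrays, and a gap of 2.10 separated the highest mutant array from the lowest wild type array. This gap was wider than the spread within either genotype, 0.46 in the mutant and 0.77 in wild type. The means were 5.91 ± 0.25 in the mutant and 8.79 ± 0.42 in wild type (SD, n = 3 each), a log2 fold change of -2.87 (95% interval -3.43 to -2.32), or 7.33-fold lower in the mutant. Among the 115 genes lower in the mutant at an adjusted p at or under 0.05 by limma, *krimp* ranked 10 by the size of its change. Leaving out 1 array at a time gave log2 fold changes from -3.12, without wild type replicate 1, to -2.73, without wild type replicate 2. Markers of other tissues were set beside this change, and those of salivary gland and fat body scattered widely within each genotype. All 9 hemocyte markers were higher in the mutant. Of the 10 salivary gland markers 8 were lower. Only *ng1* did not overlap, at 8.37, 4.88 and 8.42 in the mutant against 10.38, 10.18 and 8.67 in wild type (adjusted p = 0.403 from limma). Over all probe sets the mutant arrays lay all below the wild type arrays for 8.07%. Of the 3 fat body markers 2 were lower, with log2 fold changes of -0.72 (*Fbp2*) and -0.99 (*Lsp2*), and *Fbp1* differed by 0.10, none past the threshold. The part of these tissues in the change of *krimp* was not tested.

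**Figure D1:**
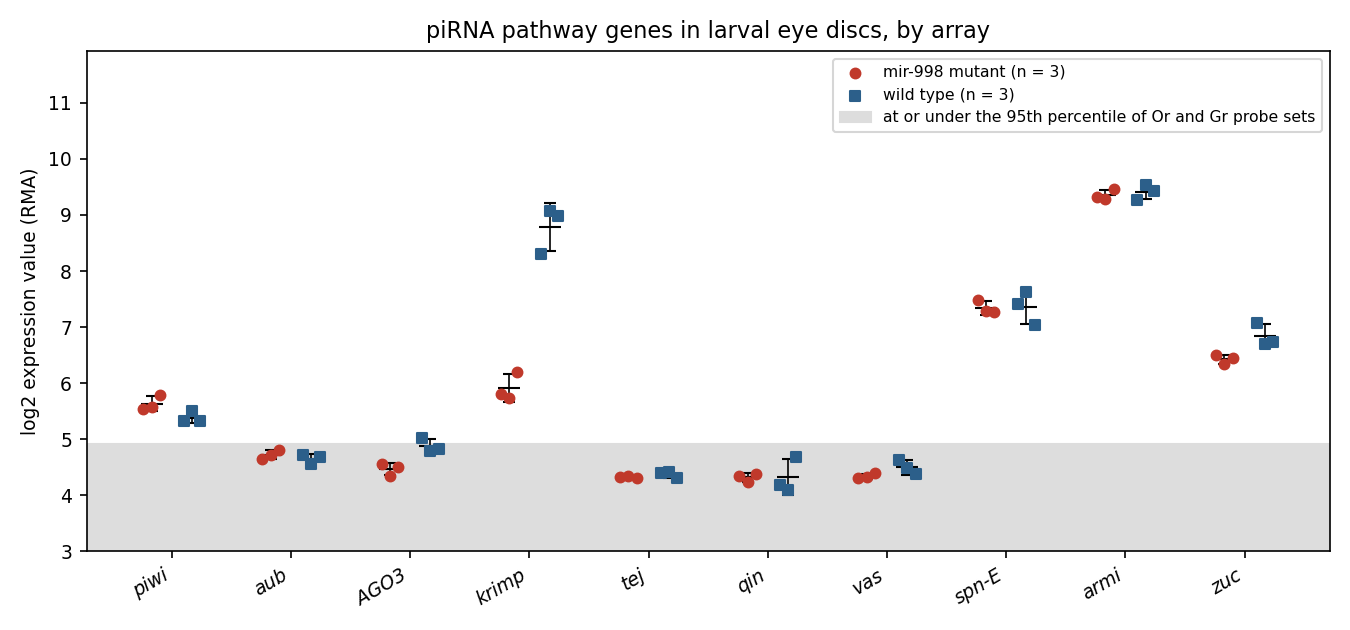
Log2 expression values (RMA) of the 10 piRNA pathway genes on each array, with the 3 mir-998 mutant arrays (circles) left of the 3 wild type arrays (squares); black bars are means ± SD, and the grey band ends at 4.91, the lower of the background levels for the mutant and wild type. The krimp values of 5.74 to 6.20 in the mutant lie apart from 8.30 to 9.07 in wild type, whereas aub, AGO3, tej, qin and vas lie in or at the edge of the band.

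To say which genes were near background, the levels were set against 125 probe sets of odorant (Or) and gustatory (Gr) receptor genes, which serve adult smell and taste and are not known from larval eye discs. Of these probe sets 95% had means at or under 4.96 in the mutant and 4.91 in wild type, and a gene at or under this level in both genotypes was counted as near background. The bacterial *trp* control probe sets, which match no fly transcript, read lower still, from 3.50 to 3.87. By this rule 5 of the 10 genes were near background in both genotypes (*aub*, *AGO3*, *vas*, *tej* and *qin*), and 5 were above it in both (*krimp*, *piwi*, *spn-E*, *armi* and *zuc*). Over the whole array 3911 of the 11982 genes read were at or under the level in both genotypes. The nearest gene under the level was *AGO3*, 0.04 under it in wild type, and *aub* lay 0.26 under it in wild type. The nearest gene over the level was *piwi*, 0.67 above it in the mutant and 0.47 above it in wild type. With the level set instead at 1 unit over the median of the *trp* controls (4.66), *aub* and *AGO3* were no longer near background. *krimp* was 0.95 above the level in the mutant and 3.87 above it in wild type. Of the 125 receptor probe sets 1 was at or above it in the mutant and none in wild type. A level near background does not show that a transcript is absent, since probe sets differ in how much signal a transcript gives. How low such a transcript is cannot be read from these arrays.

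The PIWI-clade Argonautes carry the piRNAs. *piwi*, the nuclear silencer, stood at 5.53, 5.58 and 5.79 in the mutant arrays and 5.33, 5.50 and 5.33 in the wild type arrays. All mutant values lay above all wild type values, but by little. The log2 fold change of 0.25 (95% interval 0.02 to 0.47, before adjustment) did not pass limma (adjusted p = 0.373). *AGO3*, which mostly holds sense piRNAs in ping-pong, had values of 4.55, 4.34 and 4.50 in the mutant and 5.02, 4.79 and 4.82 in wild type. The mutant arrays all lay below the wild type arrays, in a range where 1 wild type array alone (replicate 1, at 5.02) was over the background level. The difference of -0.41 (95% interval -0.64 to -0.19, before adjustment) did not pass limma (adjusted p = 0.12), and with wild type replicate 3 left out its wild type mean came out just over the background level. *aub*, the partner of AGO3, lay between 4.65 and 4.81 in the mutant and between 4.55 and 4.71 in wild type. These ranges overlapped, with a log2 fold change of 0.07 (95% interval -0.11 to 0.26, adjusted p = 0.827 from limma).

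The nuage genes *tej* and *qin* stayed near background on every array. *tej*, which encodes a nuage partner of Vas and Spn-E, ranged from 4.31 to 4.34 in the mutant and from 4.30 to 4.41 in wild type. Its log2 fold change was -0.04 (95% interval -0.19 to 0.11, adjusted p = 0.889 from limma). *qin*, whose protein keeps ping-pong between Aub and AGO3, ranged from 4.23 to 4.38 in the mutant and from 4.09 to 4.69 in wild type on its brighter probe set. The second *qin* probe set lay lower, between 4.09 and 4.18 in the mutant and between 3.90 and 4.15 in wild type. Neither passed limma (adjusted p = 0.991 and 0.686, log2 fold changes -0.01 and 0.12), so the signs of these small differences were not the same on both probe sets.

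The helicases divided into 1 gene near background and 2 with clear signal. *vas*, the DEAD-box helicase that marks germ cells, ranged from 4.30 to 4.39 in the mutant and from 4.37 to 4.63 in wild type. The difference of -0.16 did not pass (adjusted p = 0.568 from limma). A further probe set, which the annotation assigns to *vas* and *wwk* together, stood at 4.10 ± 0.07 in the mutant and 4.09 ± 0.13 in wild type (SD, n = 3 each). *spn-E*, a helicase of nuage with a Tudor domain, stood at 7.49, 7.28 and 7.27 in the mutant and 7.41, 7.63 and 7.04 in wild type. Its genotypes overlapped, with a log2 fold change of -0.01 (95% interval -0.39 to 0.36, adjusted p = 0.989 from limma). *armi*, the helicase that feeds precursor RNA into piRNA production at mitochondria, had values of 9.32, 9.28 and 9.46 in the mutant and 9.27, 9.53 and 9.43 in wild type. It gave clear signal on all 6 arrays, 4.39 over the background level in the mutant and 4.50 in wild type, and differed by -0.06 (95% interval -0.28 to 0.16, adjusted p = 0.902 from limma).

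*zuc* encodes the endonuclease on mitochondria that cuts piRNA precursors downstream of Armi. Its log2 values were 6.50, 6.34 and 6.44 in the mutant and 7.08, 6.69 and 6.74 in wild type. The mutant arrays all lay below the wild type arrays, and all 6 arrays were above background. The difference of -0.41, or 1.33-fold lower in the mutant (95% interval 1.09 to 1.61, before adjustment), did not pass limma (adjusted p = 0.217).

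Of the 10 genes, *krimp* alone counted as lower in the mutant at an adjusted p at or under 0.05 by limma, and none as higher. Over all probe sets 1.60% passed this rule, 0.815% lower and 0.783% higher, and nothing is read from the count of *krimp*, which was chosen for its fall. At an unadjusted p under 0.05 from limma were 4 of the 10 (*krimp*, *piwi*, *AGO3* and *zuc*), against 11.8% of all probe sets. The 9 genes other than *krimp* had log2 fold changes from -0.41 to 0.25 and adjusted p-values from 0.12 to 0.991. For all 9 the 95% interval lay within 0.69 of 0, so a change as large as that of *krimp* was outside each interval. A fall of that size could not have been read, however, for the 5 genes near background. In wild type *piwi*, *zuc* and *spn-E* stood 0.47, 1.92 and 2.45 above the background level, less than the fall of *krimp*. Such a fall would have taken these genes under the level, and only *armi*, 4.50 above it, would have stayed over it. The level is not a floor, since the receptor probe sets had a median of 4.13 in wild type. A fall of *piwi*, *zuc* or *spn-E* could thus still have been read at least in part. The groups did not overlap for 3 of the 10 genes that were lower in the mutant (*krimp*, *AGO3* and *zuc*) and for 1 that was higher (*piwi*). Over all probe sets the mutant arrays did not overlap the wild type arrays for 16.0%, being all below them for 8.07% and all above them for 7.97%. An exact permutation test of 3 arrays against 3 gives a two-sided p of 0.1 for *AGO3*, *zuc* and *piwi* each, the smallest this design allows. Any gene without overlap gets this value, so it adds nothing to the lack of overlap. The median log2 fold change was -0.05 over the 10 genes and 0.00 over all genes read.

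A wider list of 43 other piRNA pathway genes had 39 measured members. None of the 39 passed limma in either direction, and 3 had an unadjusted p under 0.05 (*SoYb*, *csul* and *thoc5*), against 11.8% of all probe sets. The median log2 fold change of the 39 was 0.03, with 27 higher and 12 lower, against 6124 higher and 5858 lower among all genes read. This split was not tested. Among 17 other genes of nuage, ping-pong and piRNA maturation, the Tudor domain gene *SoYb* had the largest difference. It stood at 6.28, 5.91 and 5.73 in the mutant and 5.38, 5.22 and 5.22 in wild type, without overlap, a log2 fold change of 0.70 (95% interval 0.35 to 1.05, before adjustment) that did not pass (adjusted p = 0.0941 from limma). *csul*, the arginine methyltransferase that modifies PIWI proteins so that Tudor domains bind them, averaged 8.92 ± 0.08 in the mutant and 8.64 ± 0.16 in wild type (SD, n = 3 each), a log2 fold change of 0.28 (adjusted p = 0.324 from limma). *mino*, a mitochondrial acyltransferase needed for piRNA production, differed by 0.05 (adjusted p = 0.851 from limma), although its arrays did not overlap either.

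The 12 measured genes of piRNA cluster transcription and export had a median log2 fold change of -0.02. Of these *rhi*, which marks the clusters in germ cells, stood near background at 4.25 ± 0.10 in the mutant and 4.26 ± 0.21 in wild type (SD, n = 3 each). *thoc5*, a subunit of the THO complex of RNA export, averaged 10.43 ± 0.03 in the mutant and 10.16 ± 0.06 in wild type (SD, n = 3 each), a log2 fold change of 0.27 (adjusted p = 0.127 from limma). The 10 measured genes of nuclear silencing, most of which act on chromatin in all cells, were all above background, with a median log2 fold change of 0.05. The chromatin remodeler *Mi-2* differed by 0.19 (adjusted p = 0.456 from limma) and the SUMO ligase gene *Su(var)2-10* by 0.18 (adjusted p = 0.496 from limma), both without overlap. A second, dimmer *Su(var)2-10* probe set differed by 0.55, also without overlap (adjusted p = 0.26 from limma). *SoYb*, *csul*, *mino*, *thoc5*, *Mi-2* and *Su(var)2-10* were the 6 of the 39 genes with mutant arrays all above wild type arrays, and no gene had them all below, against 1123 genes all above and 1046 all below among the 11982 genes read. Near background in both genotypes were 5 of the 39: *BoYb*, *fs(1)Yb*, *rhi*, *Nxf3* and *tj*. Of these *tj* and *fs(1)Yb* mark somatic gonad cells, *rhi* and *Nxf3* serve the clusters of germ cells, and *BoYb* is a germline relative of *fs(1)Yb*. Whether such a role goes with a low level was not tested. Of the 12 genes of cluster transcription and export, 9 were not near background, though *moon* lay only 0.15 above the level in the mutant and 0.18 in wild type. Among these 9, *cuff* averaged 6.28 in the mutant and 6.33 in wild type, and *del* 7.77 in the mutant and 7.74 in wild type.

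**Figure D2:**
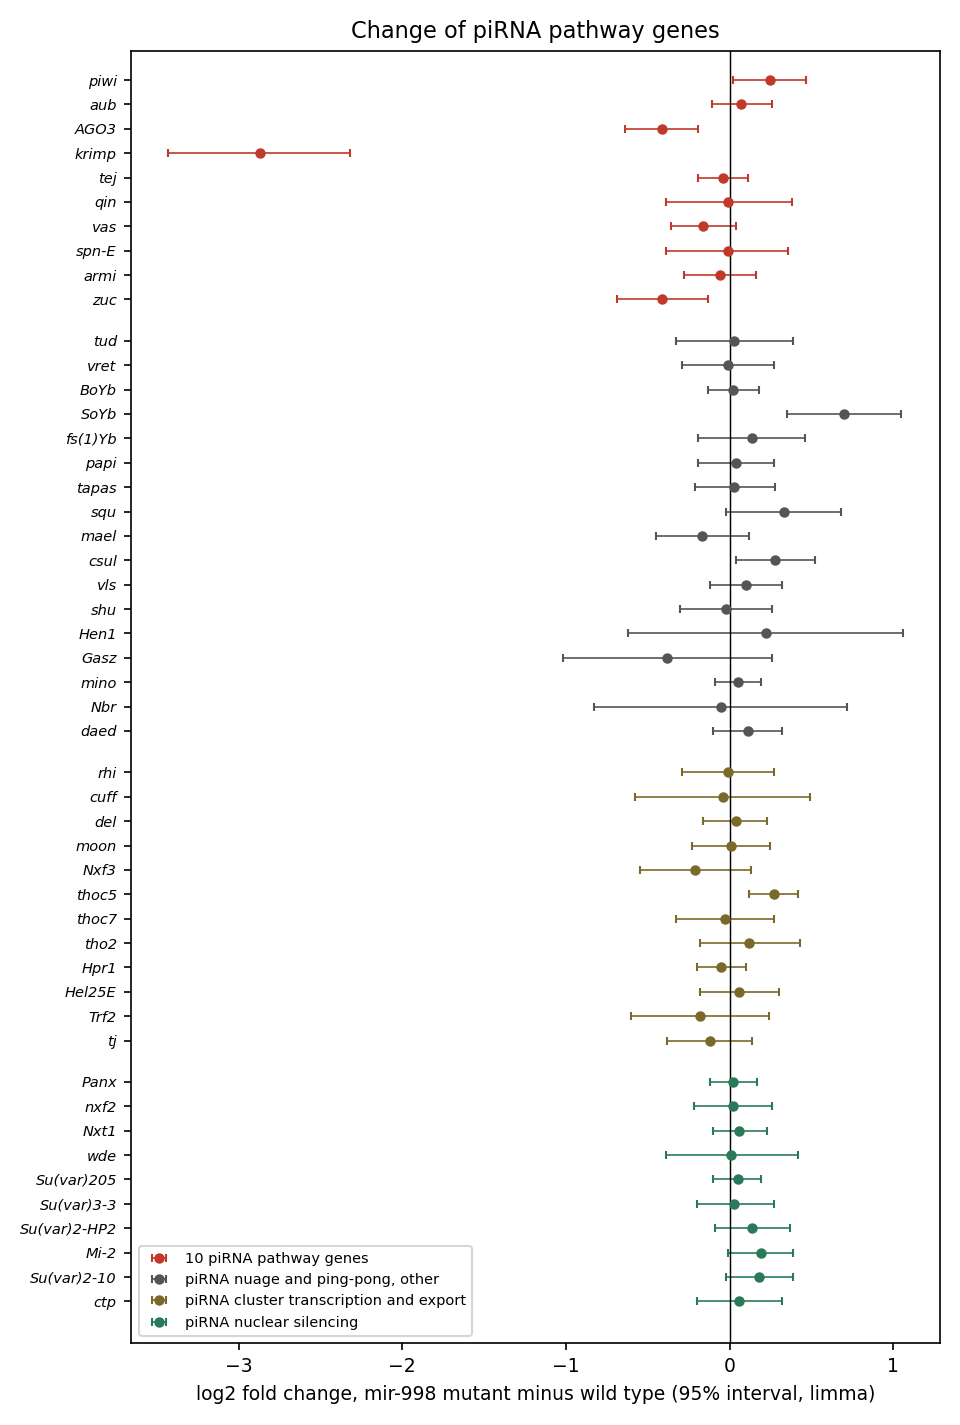
Log2 fold changes, mir-998 mutant minus wild type, with 95% intervals from limma before adjustment, for the 10 piRNA pathway genes and 39 further genes of the pathway in 3 groups by role. krimp lies at -2.87, and the other 9 genes lie between -0.41 and 0.25.

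Since *vas* and other members are germline genes, the levels were set beside gonad markers. Of 12 measured germline markers 7 were near background in both genotypes: *vas*, *osk*, *otu*, *orb*, *zpg*, *exu* and *swa*. The 5 above it were *ovo*, *stau*, *gcl*, *bam* and *bgcn*. *ovo*, which also encodes an epidermal transcription factor, averaged 11.67 in the mutant and 11.48 in wild type, while *bam*, a differentiation factor of germline stem cell daughters, averaged 5.26 in the mutant and 5.27 in wild type, 0.30 and 0.36 above the background levels of the genotypes. Of 15 testis markers 13 were near background, and *mia* and *dj* were above it. No germline or testis marker passed limma, and none of the 27 had an unadjusted p under 0.05. The mean log2 value over the germline markers was 5.86 to 5.93 in the mutant arrays and 5.88 to 5.94 in the wild type arrays. With 7 of the 12 near background, this mean could not have shown a fall in those genes, and nothing is read from it about *krimp*. Of 6 gonad soma markers *tj* and *fs(1)Yb* were near background. The other 4 (*eya*, *hh*, *upd1* and *zfh1*) are also genes of the eye disc or of other tissues.

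**Figure D3:**
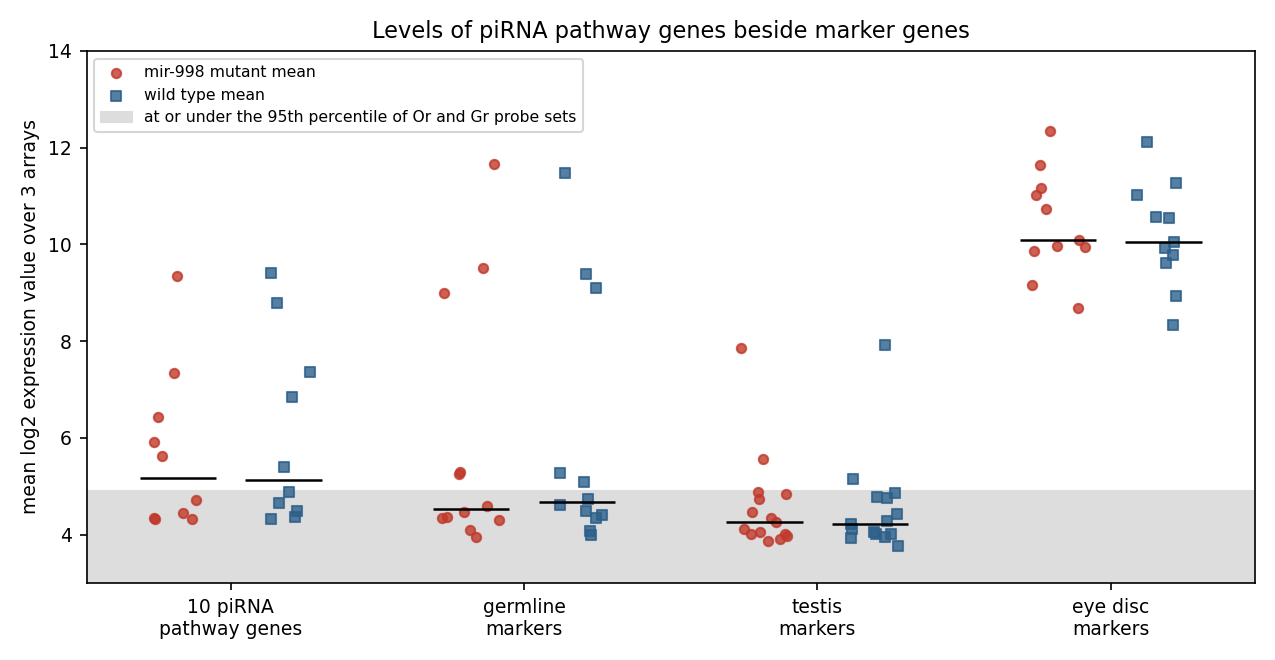
Mean log2 expression value over 3 arrays for each gene of 4 lists, with mir-998 mutant means (circles) left of wild type means (squares), list medians as black lines, and the grey band ending at 4.91. Most germline and testis markers and 5 of the 10 piRNA pathway genes lie in the band, and all 11 eye disc markers lie above it.

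The genes next to *krimp* on the chromosome were read to see whether they moved with it. *krimp* lies on chromosome arm 2R, and *mir-998* lies in *dE2f1* on 3R. No other gene in the RefSeq table overlaps *krimp*. Of the 5 measured genes on each side none was lower in the mutant by limma. The nearest on each side, *CG3687* and *CG15708*, were near background in both genotypes, with log2 fold changes of -0.05 and -0.07, so a fall there could not have been read. *CG15706*, the fifth on one side, was higher in the mutant, at 8.98, 8.98 and 9.14 against 8.42, 8.36 and 8.51 in wild type, a difference of 0.60 on the log2 scale (95% interval 0.42 to 0.79) that passed limma (adjusted p = 0.0171). With 1 array left out it passed only in the fit that omitted wild type replicate 3 (adjusted p up to 0.0828 in the other 5). *Tsf3*, a transferrin gene next to it, also had a log2 fold change of 0.60 but did not pass (adjusted p = 0.112 from limma). The pathway gene *csul* was the fourth on the other side. The remaining neighbours, *CG15701*, *CG7786*, *CngA*, *fidipidine* and *CG33017*, differed by -0.23 to 0.00 and did not pass. *CG7786*, *fidipidine* and *CG33017* were near background in both genotypes, so a fall could not have been read there either. *CngA* was near background in the mutant and only 0.15 above the level in wild type.

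**Figure D4:**
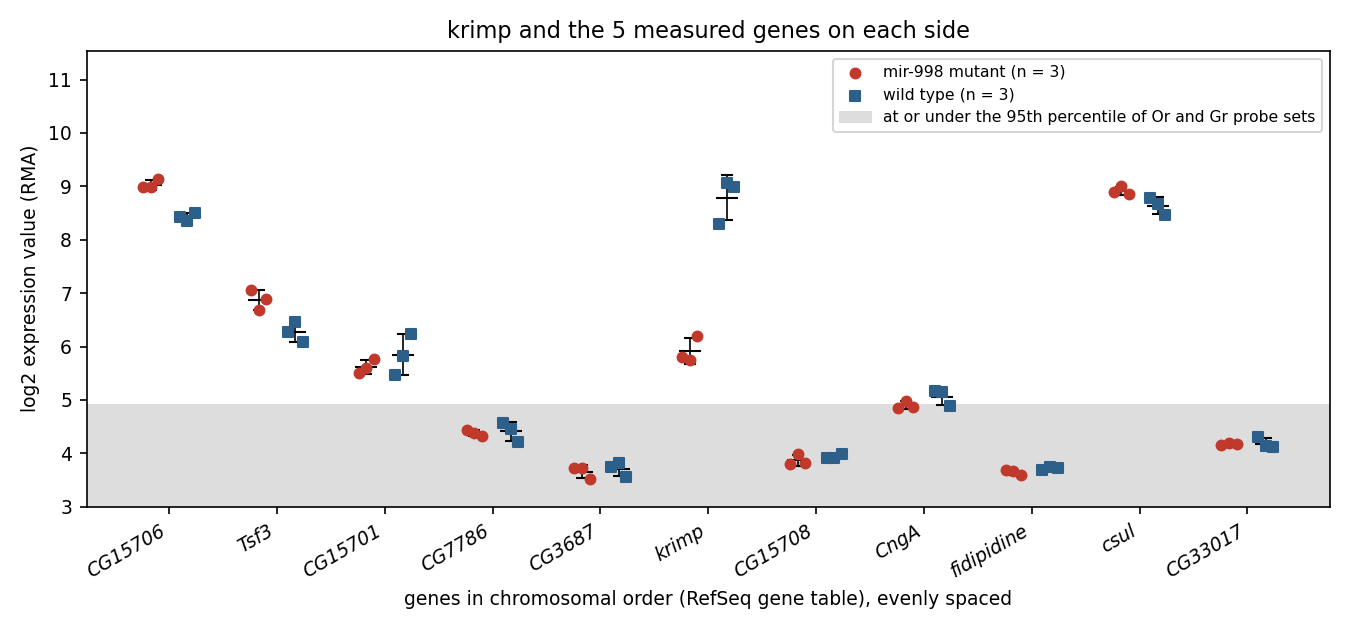
Log2 expression values (RMA) of krimp and the 5 measured genes on each side in chromosomal order, evenly spaced, with the 3 mir-998 mutant arrays (circles) left of the 3 wild type arrays (squares), means ± SD in black, and the grey band ending at 4.91. Of the 11 genes krimp alone is lower in the mutant beyond the spread of its arrays, and CG15706 and Tsf3 each differ by 0.60 in the other direction. CG7786, CG3687, CG15708, fidipidine and CG33017 lie in the band and CngA at its edge, where a fall could not be seen.

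The genes whose values were most like those of *krimp* were ranked by Pearson's r over the 6 arrays, among 1290 probe sets that had 1 named gene and spanned at least 1 log2 unit. They were *Acox57D-p*, an acyl-CoA oxidase gene (r = 0.9979), the ubiquitin protease gene *Usp47* (0.9965), *Zdhhc8*, a palmitoyltransferase gene (0.9947), the cytochrome P450 gene *Cyp4p2* (0.9908) and *wnd*, a MAP kinase kinase kinase gene (0.9901). For all 5 the mutant arrays lay below the wild type arrays, so r mostly restates the gap between genotypes, and it is given as a description. The log2 fold changes were -0.94 for *Acox57D-p*, -1.22 for *Usp47*, -1.66 for *Zdhhc8*, -6.34 for *Cyp4p2* and -1.32 for *wnd*. No other piRNA pathway gene was among them, but few could have been. The other 9 members and most genes of the wider list spanned less than 1 log2 unit and so were not ranked.

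The machinery of the other small RNA pathways, miRNAs and siRNAs, had 7 measured genes (*Dcr-2*, *loqs*, *r2d2*, *pasha*, *drosha*, *gw* and *Ranbp21*). All 7 were above background in both genotypes and none passed limma, with 2 at an unadjusted p under 0.05, against 11.8% of all probe sets. Their log2 fold changes ran from 0.07 to 0.30, with a median of 0.17. Whether they differ from the piRNA genes in this was not tested.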

How the data were processed

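Eye disc RNA (6 µg for each labeling, per the labels) was hybridized to 6 Affymetrix arrays. The authors deposited log2 expression values computed by RMA (affy), a method that corrects background, equalizes the distributions of the arrays and summarizes each probe set. No raw intensity was used here, and depth does not apply: the number of arrays limits precision. Of 18952 probe sets, 183 controls were left out and limma 3.58.1 (R 4.3.3) was run on the other 18769, mutant against wild type with no covariate, using lmFit, eBayes and Benjamini-Hochberg adjustment over all 18769 and a threshold of 0.05. A platform annotation named 1 gene for 13647 probe sets, several for 402 and none for 4720, and the RefSeq table of assembly Release 6 gave the order of genes along the chromosome. Each gene was read from its probe set with the highest mean, except in the ranking by likeness to *krimp*. There each gene was read from its probe set with the highest r, which for *Zdhhc8* was not the one with the highest mean. The members, lists and background rule were chosen with earlier results of these data known. Genes were named by rule: the 10 members, wider-list genes that were called or, for up to 6, did not overlap between genotypes, the neighbours and most similar genes of *krimp*, and the brightest and any called marker. *ng1*, *Fbp1*, *osk* and the other markers beyond these, and *rhi* and the other genes near background, were named after their values were seen. Simulated arrays were used to test the fit. Alternatives were other normalizations, variance models, filters, thresholds and background levels, the replicate number as a block, and each array left out.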

Additional observations from a re-analysis of the deposited data

How the results depend on the processing

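The log2 fold change of *krimp* ranged from -3.12 to -2.73 over 14 alternatives, and in each it was counted as lower and no other member was called. None of the 39 wider-list genes was called under any alternative. The numbers of all probe sets called, 300 here, were 477 with array weights, 119 at an adjusted p at or under 0.01, and 127 (without mutant replicate 2) to 412 (without wild type replicate 3) with 1 array left out. Same-numbered arrays of the genotypes did not vary together in every pair (correlations of their deviations 0.1931, -0.2297 and 0.2858 for replicates 1, 2 and 3), so the numbers were not taken to pair them, although the fat body markers followed the number in both genotypes (*Fbp1* at 9.78, 7.31 and 5.94 in the mutant and 9.70, 7.12 and 5.90 in wild type). With the replicate block 300 probe sets were called, *krimp* stood at -2.87 (standard error 0.17), and *NimC1* lost its call (adjusted p = 0.0508 from limma).

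The number of members near background, 5 here, was 3 with the level set from the *trp* controls and 0 at the first quartile (4.27 in the mutant and 4.29 in wild type). It was 4 to 5 with 1 array left out. Small differences that did not pass changed sign. *spn-E* stood at 0.02 with quantile normalization again and with array medians subtracted, and -0.17 to 0.12 with 1 array left out. *qin* stood at 0.01 and 0.02 under these normalizations, 0.09 with array weights, 0.06 with the mean of its probe sets, 0.12 with the probe set of largest change and -0.12 to 0.18 with 1 array left out. *armi* stood at -0.13 to 0.00 with 1 array left out.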

Other observations

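*Stellate* is a family of repeated genes that piRNAs silence in the testis. The annotation names 1 probe set for several *Stellate* copies together, so no single copy can be read. Its log2 values were 8.28, 8.95 and 9.19 in mutant replicates 1, 2 and 3, and 8.39, 8.68 and 9.05 in wild type replicates 1, 2 and 3. The genotypes overlapped, and the difference of 0.10 on the log2 scale did not pass limma (adjusted p = 0.945), and all 6 arrays lay well above the background level. Transposons were not analysed here.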
